A study of Mus musculus with 10 samples.

Results

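Axon guidance ligand and receptor genes were taken as the protein-coding genes of the mm9 annotation (GENCODE vM1) whose symbol is Epha, Ephb, Efna, Efnb, Sema, Plxn, Slit, Robo, Ntn, Unc5 or Nrp followed by a number or subtype. This gave 70 of 22238 protein-coding genes, comprising 37 ligand genes (8 ephrins, 20 semaphorins, 3 Slits and 6 netrins) and 33 receptor genes (14 Eph receptors, 9 plexins, 2 neuropilins, 4 Robo receptors and 4 Unc5 receptors). Unc50, Unc5cl and the Slitrk genes were left out because they are separate genes whose symbols only begin alike. The rule uses gene symbols alone and no measured value.

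A growing axon finds its way by reading cues with receptors at its tip. Ephrins are membrane-bound ligands of the Eph receptor tyrosine kinases, and semaphorins act through plexins, the secreted class 3 semaphorins together with neuropilins. Slits repel axons through Robo receptors, and netrins attract them or, through Unc5 receptors, repel them. Polycomb repressive complex 2 (PRC2), of which Suz12 is a core subunit, trimethylates lysine 27 of histone H3 (H3K27me3) at CpG-rich starts of developmental genes and holds them silent in embryonic stem cells (ESCs), and Pcl3 is a Polycomb-like partner of the complex.

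Chromatin immunoprecipitation with sequencing (ChIP-seq) was performed in mouse ESCs. Suz12-TAP (FlagM2 antibody) and H3K27me3 were measured in cells of genotype Suz12 Suz12TAP/+, a single gene trap line (BayGenomics XG122) in which 1 Suz12 allele carries the tag, expressing either scramble or Pcl3 shRNA. Pcl3-TAP (FlagM2 antibody) was measured in E14 ESCs that carry a tagged Pcl3 together with shRNA 6 or shRNA 7 against wild-type Pcl3. The 10 libraries were 6 ChIP and 4 input DNA libraries, 1 for each condition, so no value below has a replicate error. The values are 4 lists of sites with a p-value each. The Suz12 list holds sites of scramble cells, the Suz12-depleted list the subset of them with less Suz12 in Pcl3 shRNA cells, and the H3K27me3-depleted list sites with less H3K27me3 there. The paper reports that Pcl3 knockdown also lowered Suz12 mRNA and protein. It states that this may account for part of the reduced binding, which was not tested here. The paper reports moderately more Suz12 in the Suz12-TAP cells than in wild type. It says that their less significant Suz12 sites, absent from earlier reports, may be weak binding or an artifact of that increase. The Pcl3 list is 1 list for both Pcl3-TAP populations. No list holds read counts, so the lists do not give depth and a single site has no interval. The study tallied the sequenced and aligned reads of its libraries, and that tally was not used here. The lists contain no expression values, and neither the extent of the Pcl3 knockdown nor the transcription of any guidance gene was measured in them.

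A gene was counted as having a site when the nearest edge of a site lay within 2 kb of any of its transcript starts. A Suz12 site lay at 58 of the 70 guidance genes (82.9%), whereas 24.6% of all protein-coding genes had one. A Suz12-depleted site lay at 50 guidance genes (71.4%), beside 17.6% of all genes, and a Pcl3 site at 38 (54.3%), beside 12.5%. An H3K27me3-depleted site lay at 3 (4.29%), beside 1.92%. Ligands and receptors had similar shares of Suz12 sites, 83.8% and 81.8%. Depletion was listed at 26 of 37 ligand genes and 24 of 33 receptor genes, and Pcl3 at 19 of each. Every family had a larger share of Suz12-bound genes than the genome, from 66.7% of plexins to all Slits, neuropilins and Unc5 receptors.

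**Figure D1:**
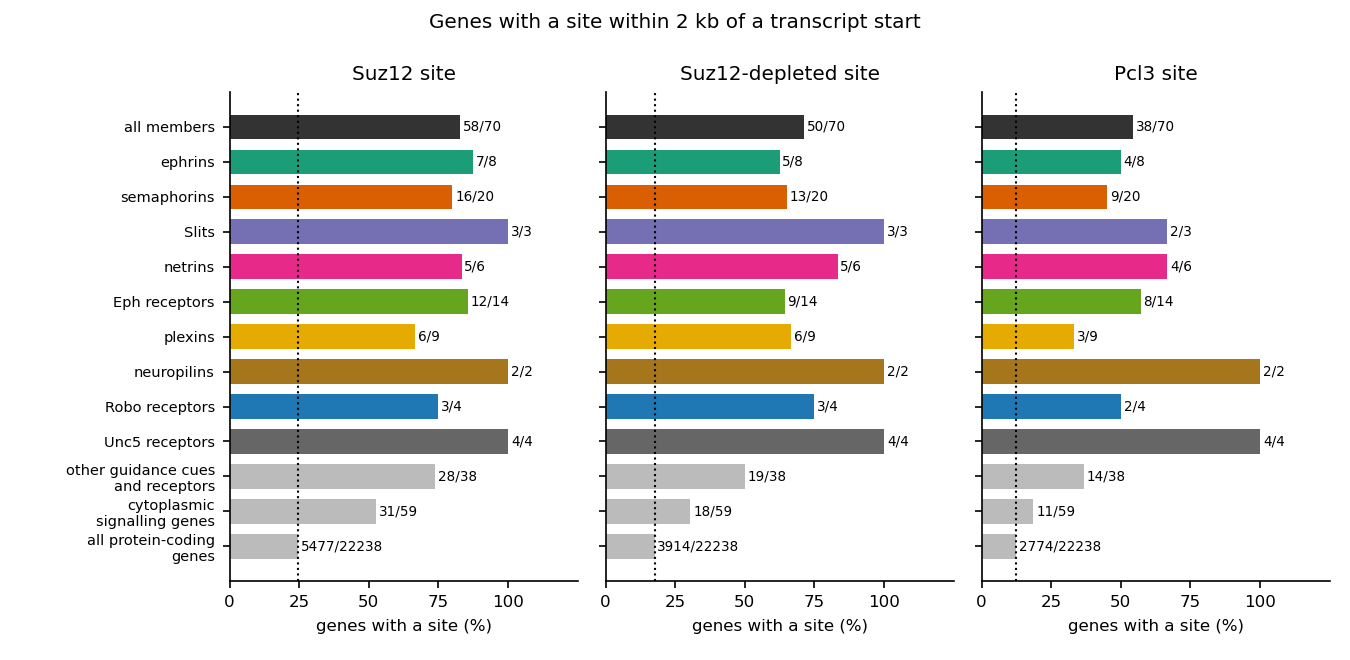
Percent of genes with a Suz12, Suz12-depleted or Pcl3 site within 2 kb of a transcript start, by gene family, with the number of genes beside each bar and the value of all protein-coding genes as a dotted line. All 9 families lie to the right of the dotted line in each panel, and 58 of 70 genes have a Suz12 site.

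The starts themselves differed in CpG content, which is shown here for 5 genes that stand for the kinds of start found below. Each sequence is the 250 bases just upstream of the most 5′ start of a protein-coding transcript in mm9, written 5′ to 3′ on the strand of the gene, with each CpG in capitals. They were taken from chr6:115945024-115945273 (minus strand) for Plxnd1, chr19:41818156-41818405 (minus) for Slit1, chr10:79641977-79642226 (plus) for Efna2, chr7:87331477-87331726 (plus) for Sema4b and chr14:32030796-32031045 (plus) for Sema3g.
Plxnd1: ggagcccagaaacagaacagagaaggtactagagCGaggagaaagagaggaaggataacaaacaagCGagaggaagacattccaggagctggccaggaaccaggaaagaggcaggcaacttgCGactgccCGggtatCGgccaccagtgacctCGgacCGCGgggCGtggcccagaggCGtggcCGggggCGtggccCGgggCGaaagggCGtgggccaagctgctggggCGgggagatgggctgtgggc
Slit1: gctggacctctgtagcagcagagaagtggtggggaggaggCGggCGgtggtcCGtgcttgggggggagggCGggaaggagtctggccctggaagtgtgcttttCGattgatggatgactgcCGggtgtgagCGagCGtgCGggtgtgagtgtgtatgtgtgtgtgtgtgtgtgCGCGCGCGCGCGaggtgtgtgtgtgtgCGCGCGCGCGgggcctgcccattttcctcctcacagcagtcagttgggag
Efna2: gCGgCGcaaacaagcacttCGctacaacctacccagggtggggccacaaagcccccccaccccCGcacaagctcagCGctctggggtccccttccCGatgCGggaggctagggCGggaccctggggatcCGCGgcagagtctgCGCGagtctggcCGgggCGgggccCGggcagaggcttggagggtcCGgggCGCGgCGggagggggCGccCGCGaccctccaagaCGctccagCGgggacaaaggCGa
Sema4b: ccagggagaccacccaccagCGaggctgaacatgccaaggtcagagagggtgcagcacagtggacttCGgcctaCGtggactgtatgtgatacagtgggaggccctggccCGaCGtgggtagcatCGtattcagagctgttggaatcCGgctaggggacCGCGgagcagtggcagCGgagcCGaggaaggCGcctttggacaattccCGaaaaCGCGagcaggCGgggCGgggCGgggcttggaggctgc
Sema3g: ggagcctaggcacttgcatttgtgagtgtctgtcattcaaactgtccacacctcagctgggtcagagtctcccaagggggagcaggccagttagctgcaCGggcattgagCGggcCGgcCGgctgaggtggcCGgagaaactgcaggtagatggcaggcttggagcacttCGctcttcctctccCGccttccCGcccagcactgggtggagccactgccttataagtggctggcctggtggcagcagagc

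All 250 bases at Plxnd1, Slit1 and Efna2 lay inside a Suz12 site, and the stretches hold 16, 20 and 25 CpG. The Plxnd1 site had one of the strongest Suz12 values and also a Pcl3 site, which covered 127 of these bases. The Slit1 site was in the Suz12-depleted list with no Pcl3 site near, and the Efna2 site was in neither of these lists. The Sema4b stretch holds 18 CpG and lay in no Suz12 site, and the Sema3g stretch holds 8 and lay in none either. The letters GCGCGC, which read the same on both strands, occur in the Slit1 stretch and in none of the other 4. They were found in the same 250-base window of 16 of the 70 guidance genes (22.9%) and of 13.5% of all protein-coding genes. Among Suz12-bound genes the share was 25.9% for guidance genes and 23.5% for all genes.

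Among the ephrins, 7 of 8 genes had a Suz12 site. Site strength is given as −log10 of the deposited p-value of the strongest site near a start, computed by the authors over the whole joined site. Efna5, a lipid-anchored ephrin of the retinal map, had a p-value too small for the number format, written as 0, over 5300 bp at chr17:63228551-63233850. Efna3 followed with 255.8, Efnb2, a transmembrane ephrin of vessels and axons, with 126.9 and Efnb1 with 65.3. These 4 ephrins were also in the Suz12-depleted list and had a Pcl3 site, of 61.5, 47.2, 48.7 and 7.8 in the same order. Efna2 (35.9) and Efna1 (20.0) had a Suz12 site that was not in the depleted list, and no Pcl3 site. Efnb3 (15.3) was weaker than both and was in the depleted list. The 3 lipid-anchored ephrins Efna1, Efna3 and Efna4 lie next to each other on chromosome 3, and of these Efna4 had no Suz12 site, the nearest being 11851 bp from its start.

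Of the 20 semaphorins, 16 had a Suz12 site, 13 were in the Suz12-depleted list and 9 had Pcl3. The transmembrane classes 5 and 6 stood high, with all 6 genes bound and depleted and 4 with Pcl3. Sema5b and Sema6a had Suz12 p-values written as 0, followed by Sema6c (169.7), Sema5a (94.6), Sema6d (91.9) and Sema6b (51.3). The Sema6c value is that of a site 974 bp from a start other than its most 5′ one. The only Pcl3 site near a Sema6c start lay inside that site. At the most 5′ start, Sema6c had a weaker Suz12 site, with a p-value of 5.32e-33. Of the secreted class 3, which acts through neuropilins, 5 of 7 genes were bound with a median of 23.1. Sema3f was far above the rest of that class at 176.0, then Sema3d (78.4), Sema3c (23.1), Sema3e (15.3) and Sema3a (8.0). Of the transmembrane class 4, 4 of 6 genes were bound with a median of 16.5. Sema4c reached 118.8, and Sema4g (20.0), Sema4f (13.0) and Sema4d (10.4) lay near the lower end of the list. Sema7a, the lipid-anchored semaphorin, had 120.5 with a Pcl3 site of 19.2. Classes 3 and 4 thus held 9 of the 16 bound semaphorins, and all 4 that had none.

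All 3 Slits, the secreted ligands of Robo receptors, had a Suz12-depleted site. Slit2 had a Suz12 strength of 271.1, Slit1 one of 120.7 and Slit3 one of 95.7. Slit2 and Slit3 also had Pcl3 sites, of 27.8 and 8.9, whereas the nearest Pcl3 site to a Slit1 start was 165520 bp away. Slit1 was therefore the stronger Suz12 gene of the pair Slit1 and Slit3 and the one without Pcl3.

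Of the 6 netrins, 5 had a Suz12 site, all 5 were depleted and 4 had Pcl3. Ntn1, the secreted attractant of the spinal cord floor plate, had Suz12 sites at both of its groups of starts, 1 with a p-value written as 0 over 3600 bp (chr11:68197751-68201350) and 1 of 7.55e-120 over 2500 bp (chr11:68211951-68214450), both depleted and both with Pcl3. Its 3 sites summed to 6550 bp, the most of any guidance gene. Ntng2, which encodes the membrane-anchored netrin-G2, had p-values written as 0 for Suz12 and for Pcl3, and Ntng1 had 152.9 and 104.5. Ntn4, a netrin of basement membranes, had a Suz12 strength of 141.9 and a Pcl3 strength of 53.0. Ntn3 had a Suz12 site of 4500 bp with a strength of 123.2 and no Pcl3 site within 2 kb, the nearest lying 2332 bp from its start. Ntn5 had no Suz12 site within 14817 bp. Of the 5 members with the strongest Pcl3 site, Ntng2, Sema5b, Ntn1, Plxnd1 and Sema6a, 4 were ligands.

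**Figure D2:**
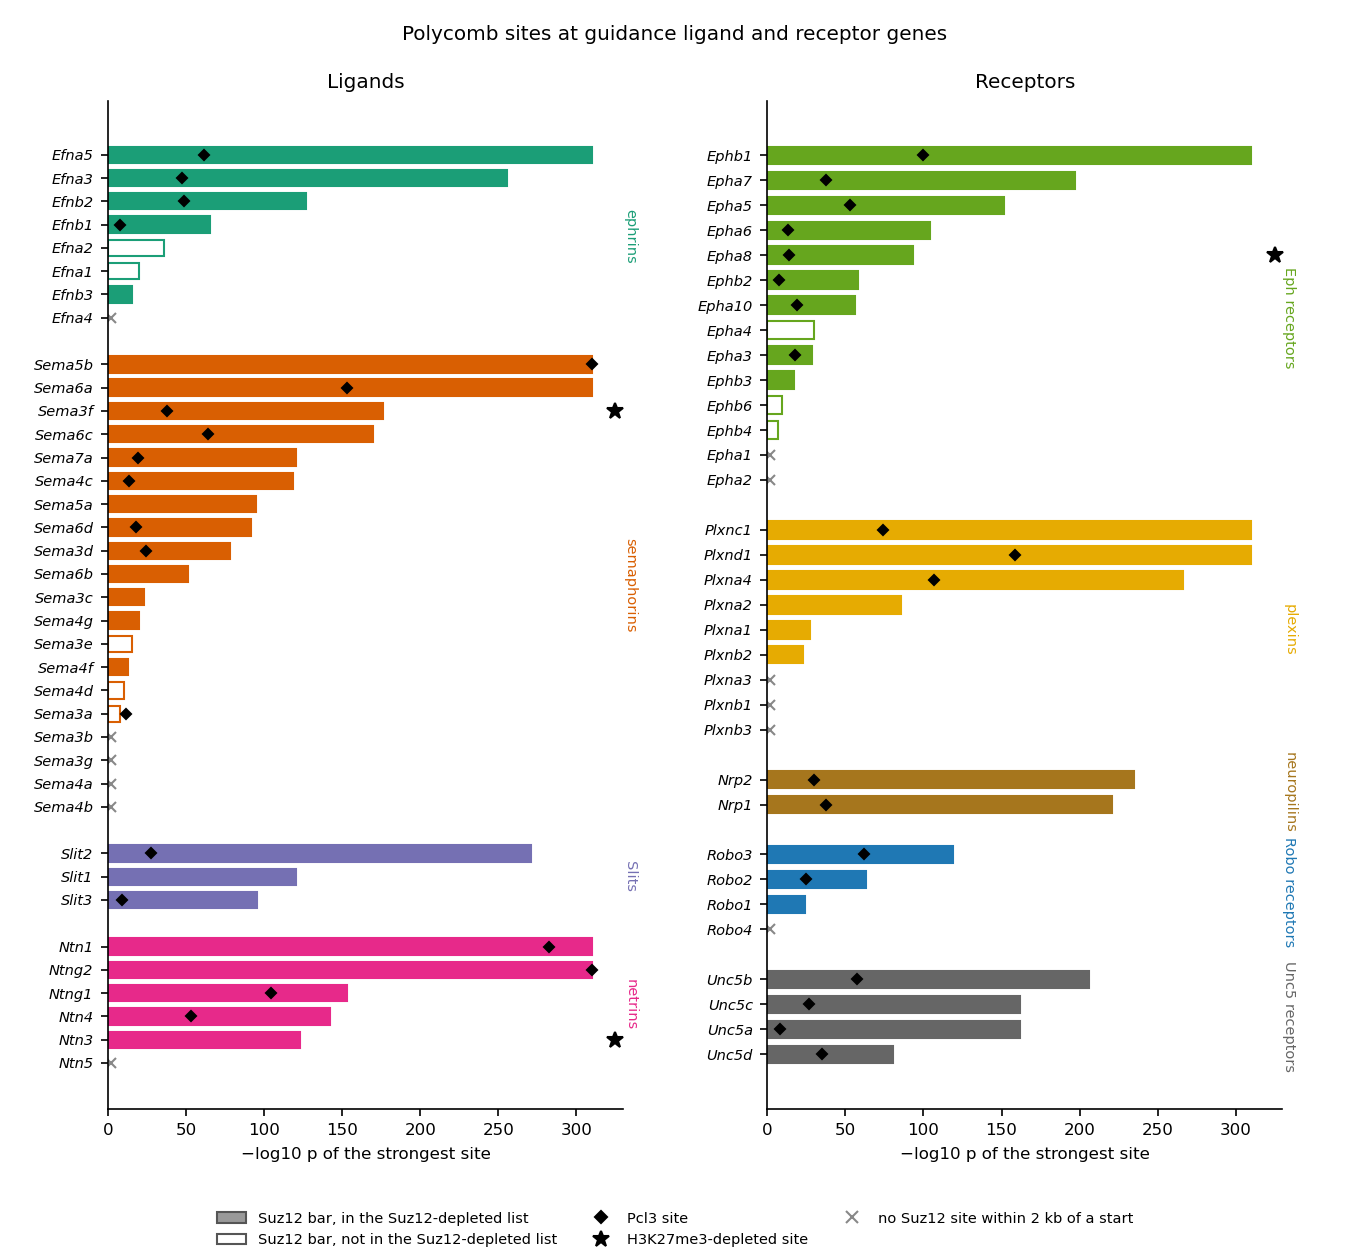
−log10 p of the strongest Suz12 site (bars) and Pcl3 site (diamonds) within 2 kb of a start of each guidance gene, by family, with p-values written as 0 drawn at the right end. Filled bars are genes in the Suz12-depleted list, open bars the 8 bound genes outside it, crosses the 12 genes with no Suz12 site and stars the 3 genes with an H3K27me3-depleted site.

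Among the receptors, 12 of 14 Eph genes had a Suz12 site, 9 were in the Suz12-depleted list and 8 had Pcl3. Ephb1 had a p-value written as 0 over 3600 bp, with a Pcl3 strength of 99.6. Among the A-type receptors, which bind the lipid-anchored ephrins, Epha7 had 196.8, Epha5 151.7, Epha6 104.3, Epha8 93.5, Epha10 56.4 and Epha3 28.3, and each of these 6 was depleted and had a Pcl3 site. Epha4 (30.0) was about as strong as Epha3 by its strongest site but was in neither list, with the nearest Pcl3 site 602638 bp away. It had 2 Suz12 sites, on either side of its start, which summed to 3050 bp, beside 1050 bp at Epha3. Among the B-type receptors, which bind the transmembrane ephrins, all 5 were bound but over a wide range, with Ephb2 at 58.3, Ephb3 at 17.1, Ephb6 at 9.6 and Ephb4 at 7.1. Ephb4 is the partner of Efnb2 in veins. Its strongest Suz12 site was the weakest and narrowest among the strongest sites of 58 bound guidance genes, 400 bp with a p-value of 8.10e-08.

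Of the 9 plexins, the receptors of semaphorins, 6 had a Suz12 site and all 6 were depleted. Plxnc1, a receptor of Sema7a, and Plxnd1, a receptor of Sema3e, had Suz12 p-values written as 0 and Pcl3 strengths of 74.0 and 158.6. Plxna4 had 266.2 for Suz12 and 106.5 for Pcl3. Plxna2 (85.9), Plxnb2 (22.7) and Plxna1, whose p-value was 9.85e-28, were depleted without a Pcl3 site within 2 kb. Plxna3, Plxnb1 and Plxnb3 had no Suz12 site. The plexins thus had the lowest share of bound genes among the families. The bound ones were split, with Plxnc1, Plxnd1 and Plxna4 far above Plxna2, Plxna1 and Plxnb2. Their median strength of 176 lies in the gap between these groups.

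Among the co-receptors and the remaining receptor families, most genes were bound and depleted. Nrp1 and Nrp2, the neuropilins that bind class 3 semaphorins, had Suz12 strengths of 221.0 and 234.9 and Pcl3 strengths of 37.6 and 30.0, and both were depleted. Summed Suz12 width at Nrp2 was 5250 bp over 2 sites. The 4 Unc5 receptors, which read netrins as repellents, were all bound, depleted and Pcl3-bound. Unc5b had a Suz12 strength of 206.2, Unc5c 162.1, Unc5a 162.0 and Unc5d 80.8, and the Pcl3 strengths were 57.4, 26.5, 8.1 and 34.9. Unc5a and Unc5c were thus equal in Suz12 strength and far apart in Pcl3 strength. Robo3, the divergent receptor that lets commissural axons cross the midline, had 4 Suz12 sites near its starts with a strongest value of 118.7 and a Pcl3 strength of 62.1. Robo2 had 63.4 and 25.0, and Robo1 had 24.0 with no Pcl3 site within 1747752 bp. All 3 were in the Suz12-depleted list, and Robo4, the receptor of endothelial cells, had no Suz12 site although it lies next to Robo3 on chromosome 9, its nearest site being 16732 bp away.

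In strength, the bound guidance genes stood above the typical bound gene. Their median −log10 p was 100.0 (quartiles 28.8 and 192) and that of all 5477 Suz12-bound genes 36.1 (15.5 and 99.5). The median guidance gene lay at percentile 75.3 of all bound genes, and 29 of 58 (50.0%) were among the strongest 25.0%. The p-value was written as 0 at 8 guidance genes, namely Efna5, Ephb1, Ntn1, Ntng2, Plxnc1, Plxnd1, Sema5b and Sema6a, and at 400 bound genes in all. The strongest site had a median width of 2150 bp beside 1300 bp. For Pcl3 the median strength was 37.4 at guidance genes and 22.5 at all 2774 genes with a Pcl3 site, and 2 guidance genes of 199 genes had a Pcl3 p-value written as 0. Across the 38 guidance genes with both, Suz12 and Pcl3 strength ranked alike (Pearson r 0.68, Spearman rho 0.79). Across all 2596 genes with both, the values were 0.78 and 0.81. Genes are not replicates here, and both p-values were computed by the authors over whole joined sites.

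Of the 58 bound guidance genes, 50 (86.2%) were in the Suz12-depleted list, beside 71.5% of all Suz12-bound genes, and 38 (65.5%) had a Pcl3 site, beside 47.4%. Both calls were made more often at strong sites, so all bound genes were divided into 4 classes of near-equal size by Suz12 strength. In the strongest class all 29 guidance genes were depleted, as were 100.0% of all bound genes there, and 27 (93.1%) had Pcl3, beside 96.4%. In the next class all 12 guidance genes were depleted and 9 (75.0%) had Pcl3, beside 98.5% and 61.1% of all genes. In the class below 7 of 10 were depleted, beside 69.8%, and 1 (10.0%) had Pcl3, beside 22.2%. In the weakest class 2 of 7 were depleted, beside 17.4%, and 1 (14.3%) had Pcl3, beside 9.80%. In the strongest class and the next, nearly all bound genes were depleted, so the share of depleted guidance genes could hardly differ there. In the class below them that share lay close to that of all bound genes. In the weakest it was higher and rests on 7 genes.

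**Figure D3:**
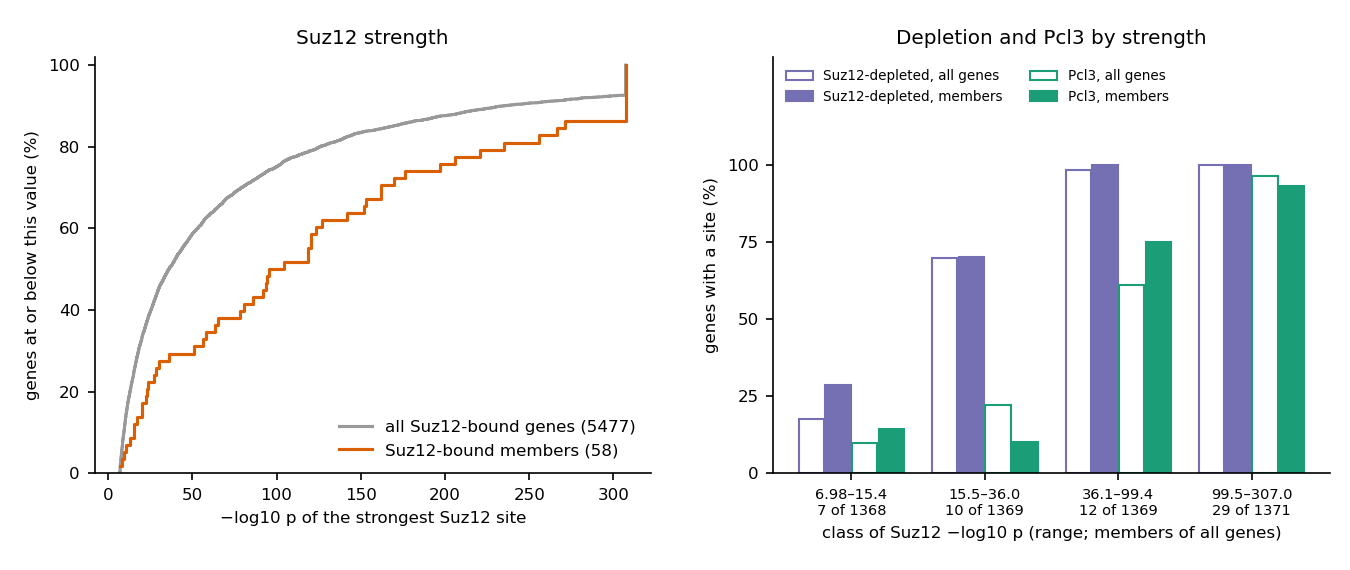
Left, percent of genes at or below each −log10 p of the strongest Suz12 site, for the 58 bound guidance genes and all 5477 bound genes. Right, percent of genes in the Suz12-depleted list and with a Pcl3 site by class of Suz12 strength, where open bars are all bound genes and filled bars guidance genes, of which 29 fall in the strongest class.

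Grouped by both lists, 37 guidance genes were depleted and had Pcl3, 13 were depleted without Pcl3, 7 were in neither list and 1 had Pcl3 without depletion. The median Suz12 strength of these groups was 162 for the first, 24.0 for the second and 15.3 for the third. Of all 5477 Suz12-bound genes, 2431, 1483, 1398 and 165 fell into these groups in the same order. With Pcl3, 97.4% of bound guidance genes were depleted, beside 93.6% of all bound genes, and without it 65.0%, beside 51.5%. The 13 genes depleted without Pcl3 were Efnb3, Ephb3, Ntn3, Plxna1, Plxna2, Plxnb2, Robo1, Sema3c, Sema4f, Sema4g, Sema5a, Sema6b and Slit1. Among them Ntn3, Slit1, Sema5a and Plxna2 had strengths above 85, while the other 9 lay between 13.0 and 51.3. The 8 bound genes outside the depleted list were Efna1, Efna2, Epha4, Ephb4, Ephb6, Sema3a, Sema3e and Sema4d, with strengths from 7.09 to 35.9. Sema3a, a secreted repellent, was the gene with Pcl3 and no depletion, and it was weak for both, with 8.0 for Suz12 and 11.6 for Pcl3. Its Suz12 site began 273558 bp downstream of the main start, at another annotated start. No guidance gene had a Pcl3 site without a Suz12 site, beside 178 of all 2774 genes with a Pcl3 site. The Suz12-depleted list repeats the p-values of binding, so the size of the loss could not be ranked among these genes.

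Decreased H3K27me3 was listed at Epha8, Ntn3 and Sema3f. At Epha8 the site lay over the start (chr4:136512451-136514050, p-value of the loss 1.84e-08), at Ntn3 82 bp from it (chr17:24344701-24346250, 1.33e-09) and at Sema3f 1006 bp from it (chr9:107610701-107611800, 3.30e-08). All 3 genes were in the Suz12-depleted list, and Epha8 and Sema3f also had Pcl3. None of the 8 guidance genes with the strongest Suz12 sites was among them. Of the Suz12-bound guidance genes, 5.17% had an H3K27me3-depleted site, beside 7.52% of all Suz12-bound genes. In the strongest of the 4 Suz12 classes 2 of 29 guidance genes (6.90%) had such a site, beside 17.7% of all genes of that class, and in the next class 1 of 12 (8.33%), beside 8.91%. No guidance gene of the 2 weaker classes had one, beside 2.48% and 1.02% of all genes there. These differences rest on 3 genes and were not tested. None of the 3 remained when sites were held to a p-value of at most 1e-10. At that limit 0.634% of all protein-coding genes had such a site, beside 1.92% without it.

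No Suz12 site lay within 2 kb of a start of 12 guidance genes. Their nearest Suz12 site was 2933 bp away at Sema3b and 11851, 14817, 16732 and 21867 bp away at Efna4, Ntn5, Robo4 and Epha1. At the other 7, Sema4a, Epha2, Plxnb1, Sema4b, Sema3g, Plxnb3 and Plxna3, it was between 23247 and 448055 bp away. Sema3b, a secreted class 3 semaphorin, had 2 Suz12 sites inside the gene and none near a start, and it was counted as bound when sites up to 5 kb from a start were taken. Plxna3 and Plxnb3 are both on chromosome X, as is Efnb1, which was bound and depleted.

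Most of the strongest sites sat on the main start, defined as the most 5′ start of a protein-coding transcript. They covered it at 48 of 58 bound guidance genes (82.8%), beside 71.0% of all bound genes. At Ntn1, Plxnb2, Sema3a, Sema6c and Sema6d the strongest site lay more than 5 kb downstream of it, over another annotated start or, at Sema6c, 974 bp from one. Sema6d had Suz12-depleted sites with Pcl3 at both, with p-values of 1.27e-65 at the main start and 1.38e-92 at a start whose site began 519496 bp downstream. Of the 31 bound guidance genes with starts more than 5 kb apart, 4 (12.9%) had a Suz12 site at each group of starts, beside 6.2% of the 2162 such bound genes in all, and 27 had a group without one. Slit2, with 11 such groups of starts, had a site at 1 of them. The strongest site was shared with the start of another protein-coding gene at Efnb2 (4921522P10Rik) and Ntn3 (Tbc1d24), and for these the site cannot be assigned to one gene.

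**Figure D4:**
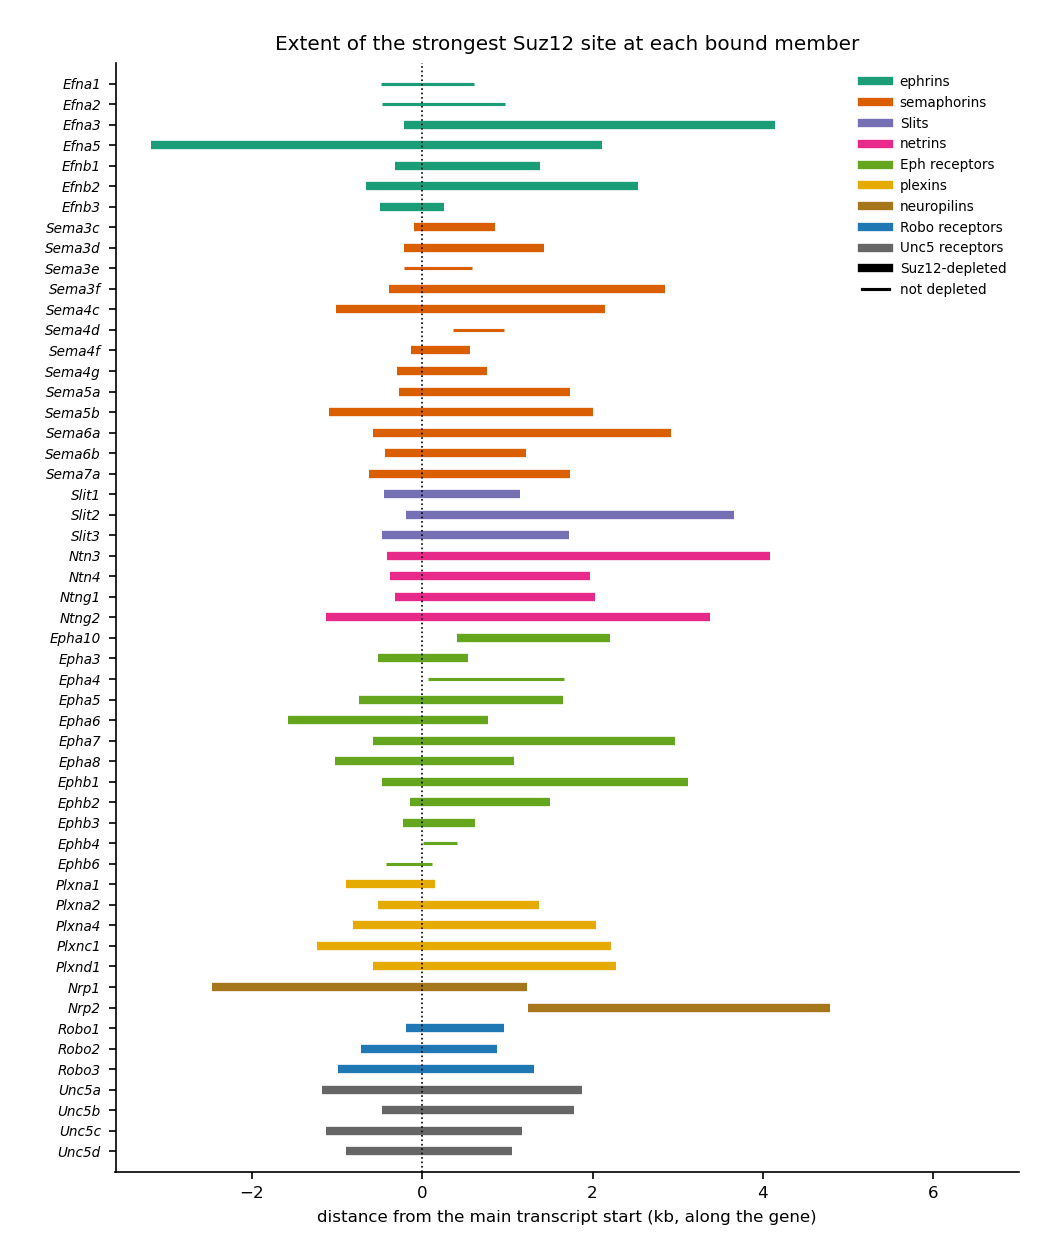
Extent of the strongest Suz12 site of 53 bound guidance genes, in kb from the main start along the direction of the gene, leaving out 5 genes whose strongest site lies farther than 5 kb away. Thick lines are genes in the Suz12-depleted list and thin lines genes outside it, and most lines cross 0 and reach farther into the gene than upstream of it.

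The CpG content around the main start differed between guidance genes with and without a Suz12 site. Over 1000 bp around the start, the 58 bound genes had a median of 6.85 CpG per 100 bp (2.30 to 13.6) and the 12 others one of 3.05 (0.800 to 11.2), beside 4.10 for all protein-coding genes. All protein-coding genes differed in the same way, with medians of 6.4 with and 2.6 without a Suz12 site. None of the 6 guidance genes under 2 CpG per 100 bp had a site. Of all protein-coding genes, 2.51% of those under 1 and 9.31% of those from 1 to 2 had one. At 4 or more, 56 of 62 guidance genes had a site (90.3%), beside 37.9% of the 11400 protein-coding genes with such starts. The 6 without a site at this density were Epha1, Epha2, Efna4, Sema4b, Plxna3 and Plxnb1, and Plxnb1 had 11.2 CpG per 100 bp. CpG density was weakly related to strength among bound guidance genes (Pearson r 0.23, Spearman rho 0.26, 58 genes). The density is that of the main start, which the strongest site did not cover at 10 of these genes.

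**Figure D5:**
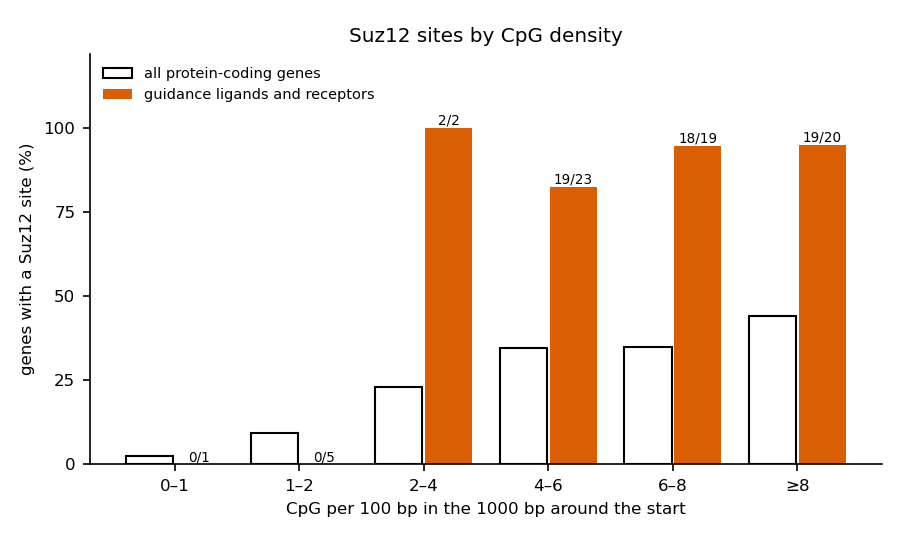
Percent of genes with a Suz12 site by CpG per 100 bp in the 1000 bp around the main start, for all protein-coding genes (open) and guidance genes (filled, with counts). At 4 or more CpG per 100 bp, 56 of 62 guidance genes have a site, beside 37.9% of all genes.

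Other genes of the pathway were counted from 2 lists. Of 38 further guidance cues and receptors, such as Dcc, the netrin receptor of attraction, the Slitrk genes and the contactins, 28 (73.7%) had a Suz12 site, 19 (50.0%) a depleted site, 14 (36.8%) a Pcl3 site and 0 an H3K27me3-depleted site. Their median Suz12 strength was 39.7. The strongest was Rgma, a repulsive cue, at 169.0, and Dcc had 36.9 with a Pcl3 site of 12.1. Of 59 cytoplasmic genes that carry guidance signals to the cytoskeleton, 31 (52.5%) had a Suz12 site, 18 (30.5%) a depleted site, 11 (18.6%) a Pcl3 site and 1 (1.69%) an H3K27me3-depleted site, with a median strength of 27.2. Of all protein-coding genes 24.6%, 17.6%, 12.5% and 1.92% had a site of these 4 kinds. Trio (181.6) and Ngef (167.1) were the strongest of the cytoplasmic genes. The shares for Suz12, Suz12 depletion and Pcl3 thus stood in the order guidance ligands and receptors, other cues and receptors, cytoplasmic genes, all genes, and those for H3K27me3 depletion did not follow it. Among Suz12-bound genes alone, the depleted shares in that sequence were 86.2%, 67.9%, 58.1% and 71.5%, and the Pcl3 shares 65.5%, 50.0%, 35.5% and 47.4%. There the cytoplasmic genes lay below all genes for both, and the other cues and receptors for depletion. These orders were not tested because genes are not replicates of a condition.

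As a check of the labelled cell type, Suz12 sites were looked up at marker genes. Of 12 pluripotency markers 3 had a Suz12 site (Klf4, Esrrb and Utf1), or 25.0% beside 24.6% of all protein-coding genes, and Pou5f1, Nanog and Sox2 had none, whereas all 11 lineage markers found, among them Pax6, Gata4 and Hand1, had Suz12, Suz12-depleted and Pcl3 sites.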

How the data were processed

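The authors aligned single-end 30-nucleotide reads to mm9 with Bowtie, kept unique alignments, scaled libraries that were compared to an equal background, scanned windows of 400 bp for a Skellam p-value under a cutoff of 1e-07, and merged such windows into sites. They deposited 4 lists with 1 p-value per site, which are the only measured values used. All 5722 entries of the Suz12-depleted list carry the p-value of binding. P-values written as 0 (435 Suz12 and 208 Pcl3 sites) were placed at the largest −log10 value. Whether the Pcl3-TAP libraries were pooled is not given in the sources used here. Unique alignment leaves out most repeated sequence, and the scaling takes the background of both libraries to be equal.

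From the lists, the distance of each site edge to each transcript start of GENCODE vM1 was computed (22380 gene identifiers, joined to 22238 symbols), and a gene had a site within 2 kb. CpG densities and sequences come from the mm9 genome. The lists fit that genome, with 0 sites beyond a chromosome end. No test over samples was possible with 1 library a condition, so members are described by counts and medians beside all protein-coding genes. The 70 genes, the gene lists and the alternatives were chosen with earlier results of these data known. The genes named with values were those with the 5 strongest or 5 widest Suz12 coverage, the 5 strongest Pcl3 sites, an H3K27me3-depleted site, a Suz12 site outside the depleted list, or Pcl3 without Suz12, the bound genes of families of 5 or fewer, and the 5 unbound genes nearest a Suz12 site. Others named were chosen after their values were seen. Of the 40 and 60 symbols of the pathway lists, 38 and 59 were found, as were 12 of 12 and 11 of 12 markers. Alternatives were distances of 500 bp, 1 kb and 5 kb, site centers, protein-coding or most 5′ starts only, p-values of at most 1e-10 or 1e-12, leaving out chromosome 11, X and Y, or Ntng1 and Ntng2, site width in place of the p-value and a CpG window of 500 bp. A value within 1.5 times the reported one was counted as kept. The overlap function was tested on simulated data, with 0 errors in 300 genes under 6 settings. The scripts ran in Python 3.11.15 with pandas 2.3.3, numpy 2.4.6, matplotlib 3.10.9 and scipy 1.17.1.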

Additional observations from a re-analysis of the deposited data

How the results depend on the processing

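Of 75 recomputed values, 71 stayed within 1.5 times the reported value. With p-values of at most 1e-10, and also of at most 1e-12, the guidance genes with an H3K27me3-depleted site went from 3 to 0, as those sites have p-values above both. The share of all protein-coding genes with such a site went from 1.92% to 0.634% and 0.373%. The median Suz12 strength of bound guidance genes over that of all bound genes was 2.77 by −log10 p, 1.65 by the width of the strongest site and 1.70 by the summed width of all sites. Over all count settings, both p-value limits included, a Suz12 site lay at 54 to 59 guidance genes, beside 20.2% to 26.2% of all genes. A Suz12-depleted site lay at 47 to 50, beside 16.4% to 18.7%, and a Pcl3 site at 33 to 39, beside 8.87% to 13.3%. The lowest Suz12 and Pcl3 counts came at 1e-12, and the lowest depleted count without chromosome 11, where 67 guidance genes were counted. The depleted list carries the p-value of binding, so the p-value limits do not test the depletion call. Adding Unc50, an alternative chosen after the data were seen, added no gene with a site. At 500 bp Sema3f, Sema6c and Unc5a had no Pcl3 site. Sema6c also had none at 1 kb, by site centers, and with protein-coding or most 5′ starts only. Sema3f also had no H3K27me3-depleted site at 500 bp or 1 kb. This left 2 guidance genes with one, beside 1.36% and 1.66% of all genes. At 1e-12 Ephb4, Ephb6, Sema3a and Sema4d lost their Suz12 site, and Efnb1, Ephb2, Sema3a, Slit3 and Unc5a their Pcl3 site. With the most 5′ start alone, Plxnb2 and Sema3a had no Suz12 site, and Sema3a no Pcl3 site. No paired analysis was possible because no result comes from a test over samples. Without read counts, a gene without a site may hold binding below the cutoff.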

Other observations

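Suz12 sites also lay inside guidance genes away from their starts. There were 27 such sites, each more than 2 kb from every annotated start of its own gene. Their distance to starts of other genes was not tested. The sites lay in 16 of the 70 genes (22.9%), and 4.35% of all protein-coding genes held such a site. Among Suz12-bound genes the shares were 25.9% of guidance genes and 11.9% of all. Guidance genes were also longer, with a median of 51.5 kb beside 15.5 kb, and 119 kb beside 30.6 kb among bound genes, and the part of gene length in these shares was not tested. Unc5b held 4 of the 27 sites over 3100 bp and Sema3f 3 over 2000 bp, and Efna2, Efnb2, Ntn1, Plxnd1, Sema3b and Sema5b held 2 each. Sema3b was the only one of the 16 without a site near a start.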
